A study of Mus musculus with 37 samples.

Results

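Bacteroides and Parabacteroides are 2 genera of Gram-negative anaerobic gut bacteria in the order Bacteroidales. The rows described here are all sequence variants whose taxonomy names either genus. A sequence variant is 1 distinct amplicon sequence, and each row of the deposited table is treated as 1 variant. Of 6100 rows, 272 met this rule: 158 were Bacteroides and 114 were Parabacteroides. Together they held 1876326 reads, or 11.6% of bacterial reads.

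The libraries are V3–V4 amplicons of bacterial 16S rRNA genes, made from stool DNA of adolescent C57Bl/6 mice. All 37 mice were offspring: the dams of the exposed mice drank 10% ethanol for the first 10 days of pregnancy and water afterwards (prenatal alcohol exposure, PAE), and the dams of the controls drank water throughout. The males were 11 controls and 10 PAE mice, and the females 7 controls and 9 PAE mice. No mouse is labelled as having drunk ethanol itself. The labels name no dam, litter or cage, so the p-values measure the spread between libraries, and offspring of 1 dam may stand among them.

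Members of both genera carry large sets of enzymes that cut plant and host glycans, including mucin. They ferment the sugars to acetate, propionate and succinate. B. acidifaciens, B. caecimuris and B. sartorii are all known from the mouse gut. The last of these, together with B. vulgatus, is now often placed in the genus Phocaeicola. P. goldsteinii and P. distasonis are commensals of mice and humans. Parabacteroides also holds many strains without a species name. Because a V3–V4 amplicon covers part of 1 gene, a species name here is the name in the deposited taxonomy.

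Bacterial reads per library ranged from 102655 to 1813222, with a median of 293011. All levels below are percent of the bacterial reads of a library, which measure shares: a larger share of a genus and a smaller amount of the other bacteria cannot be told apart. Libraries are named by their group and the number in their label. These numbers fall into runs of 1 to 10 and 30 to 37 (controls) and 11 to 19 and 20 to 29 (PAE), and no run holds both exposures, so run and exposure cannot be told apart. Reads of another genus, Robinsoniella, were found in 9 libraries (37 to 2053 reads): control females 3 and 10, PAE males 20 to 24 and PAE females 27 and 28. The other 28 libraries held none. The main comparisons are given with and without these 9 libraries.

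Most of the 272 variants were rare. In all, 240 were read in 1 library and 202 had fewer than 10 reads over the series. A filter of at least 5 reads in at least 7 libraries kept 7 Bacteroides and 4 Parabacteroides variants, and these 11 held 97.16% of the reads of both genera. The 261 variants that did not pass had at most 17794 reads each. B. acidifaciens held the largest share of Bacteroides reads among the species names, with 20 variants and 47.7% of them. B. sartorii followed with 19 variants and 31.6%, of which variant a made up 99.65%. Bacteroides without a species name had 103 variants and 12.6% of the reads of the genus, and variant a was again nearly all of it (99.73%). B. caecimuris had 5 variants and 7.53%, and B. vulgatus 1 variant and 0.442%. In Parabacteroides, variants without a species name held 70.5% of reads, and variants named uncultured_Bacteroidales held 19.2%. P. goldsteinii held 5.14% and P. distasonis 5.13%. The remaining names had few reads: bacterium_NLAE-zl-P177 had 28, uncultured_bacterium 9 in Bacteroides and 51 in Parabacteroides, and Monocercomonoides_sp., the name of a protist genus, 3.

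The genus Bacteroides held a larger share in PAE males than in control males. In control males it made up from 1.31% to 7.26% of bacterial reads, with a median of 2.75% and a mean of 3.06% ± 1.71 (SD, n = 11). In PAE males it made up from 3.14% to 35.6%, with a median of 15.1% and a mean of 17.3% ± 13.3 (SD, n = 10). The ranges overlapped, but all 10 PAE males lay above the control median and 5 of them, numbers 20 to 24, lay between 23.4% and 35.6%, above every control male. The ratio of mean shares was 5.67. The log2 fold change was 3.42 (SE 0.68) with an adjusted p of 0.000538 by edgeR's quasi-likelihood test with Benjamini-Hochberg adjustment over all genera tested. The size of this change depended on scaling and filter. When libraries were scaled by total reads instead of by TMM, the log2 fold change was 2.50 (adjusted p = 0.00104, edgeR). It was 2.68 with the non-bacterial rows kept (adjusted p = 0.00108, edgeR). With a stricter filter (10 reads or more, 18 libraries or more) it was 2.70 (adjusted p = 0.0026, edgeR). TMMwsp scaling gave 3.43, and depth as a covariate 3.80.

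The 5 high PAE males were all Robinsoniella libraries. Without the 9 Robinsoniella libraries, Bacteroides averaged 5.14% ± 1.61 (SD, n = 5) in PAE males and 3.06% ± 1.71 (SD, n = 11) in control males. The log2 fold change then fell to 0.82 (95% interval 0.10 to 1.55) and did not pass the threshold (p = 0.0341, adjusted p = 0.474, edgeR). The part of these libraries in the result was not tested further. With runs of label numbers as a random block in limma, the male log2 fold change was 2.69 (adjusted p = 0.576).

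In females the genus ranged from 1.68% to 8.99% in controls, with a median of 2.55% and a mean of 4.52% ± 3.17 (SD, n = 7). In PAE females it ranged from 2.0% to 30.3%, with a median of 5.03% and a mean of 9.49% ± 10.1 (SD, n = 9). PAE females 27 (30.3%) and 28 (23.3%) lay above every control female, and the other 7 lay within the control range. The log2 fold change of 1.72 (SE 0.76, 95% interval 0.24 to 3.21) did not pass after adjustment (p = 0.0283, adjusted p = 0.326, edgeR). It was 1.49 with TMMwsp scaling and 1.07 with scaling by total reads. With the non-bacterial rows kept it was 0.87 (p = 0.174, edgeR), and with the stricter filter 0.91 (p = 0.165, edgeR). Without the Robinsoniella libraries, which include PAE females 27 and 28, it was 0.26 (95% interval -0.55 to 1.07; adjusted p = 0.892, edgeR), with means of 2.77% ± 1.3 (SD, n = 5) in controls and 4.54% ± 1.98 (SD, n = 7) in PAE. The male and female changes differed by 1.70 (SE 0.95) on the log2 scale, which did not pass either (adjusted p = 0.593, edgeR interaction term). This difference was 0.56 without the Robinsoniella libraries (adjusted p = 0.969, edgeR), and leaving out 1 library at a time moved it between 0.48 (without PAE female 14) and 2.38 (without control male 35), never past the threshold. Control females 3 (8.99%) and 10 (8.80%) were the highest female controls and also held Robinsoniella reads.

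**Figure D1:**
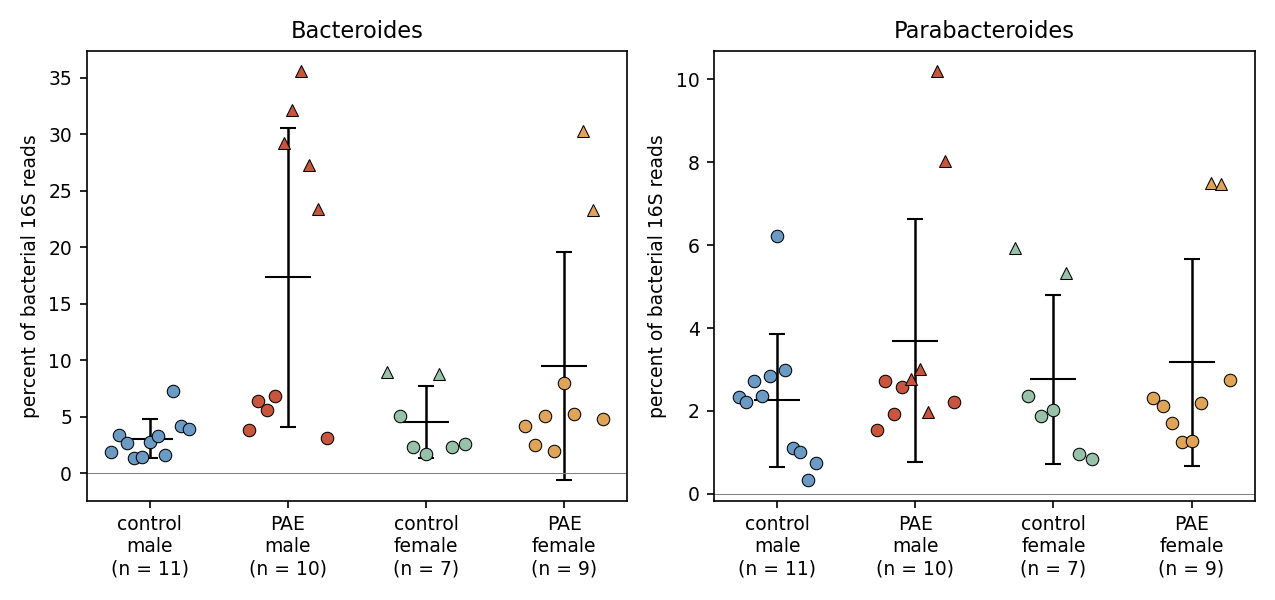
Percent of bacterial 16S reads in each library for Bacteroides (left) and Parabacteroides (right), by group. Points are libraries, triangles are libraries with Robinsoniella reads, and the bars are the mean and SD; PAE males 20 to 24 and PAE females 27 and 28 stand at 23.3% or more in the Bacteroides panel.

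Parabacteroides differed less. It made up 2.26% ± 1.61 (SD, n = 11) of reads in control males, ranging from 0.327% to 6.22% with a median of 2.34%. In PAE males it made up 3.70% ± 2.94 (SD, n = 10), ranging from 1.55% to 10.2% with a median of 2.65%. PAE males 23 (10.2%) and 24 (8.04%) were above every control male and the rest lay within the control range. Its log2 fold change of 1.53 (SE 0.59) did not pass (p = 0.0133, adjusted p = 0.0852, edgeR). It was 1.37 with TMMwsp scaling, 0.71 when libraries were scaled by total reads, 0.67 with the non-bacterial rows kept and 0.59 with the stricter filter. Without the Robinsoniella libraries, which include PAE males 23 and 24, it was 0.05 (adjusted p = 0.982, edgeR). Leaving out 1 library at a time moved it between 0.43 (without control female 34 or PAE female 27 or 28) and 1.80 (without control male 31, the highest control), and of these 37 fits the last alone passed (adjusted p = 0.0468, edgeR). The female libraries named here are in neither male mean. They enter the male change only through the scaling, the filter and the shared spread. In control females the genus made up 2.76% ± 2.04 (SD, n = 7) and in PAE females 3.17% ± 2.49 (SD, n = 9), a log2 fold change of 0.79 with a 95% interval from -0.55 to 2.12 (adjusted p = 0.927, edgeR). PAE females 27 (7.5%) and 28 (7.48%) were again the highest, and without the Robinsoniella libraries the female change was -0.13 (adjusted p = 0.917, edgeR).

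Thus 1 of the 2 genera was called in males, where 13% of the 115 genera tested were called. Neither was called in females (edgeR; 1 of 2 at an unadjusted p under 0.05; background 4.35%). Neither was called for the difference between sexes (0 of 2 unadjusted, background 1.74%), for male against female within controls (0 of 2 unadjusted, background 4.35%) or within PAE (0 of 2 unadjusted, background 0%). These backgrounds are shares called after adjustment. Over all 115 genera, 11, 12, 13 and 9 had an unadjusted p under 0.05 (edgeR) in these 4 comparisons, in that order. DESeq2 and limma called neither genus in any of these 4 comparisons. Over all genera tested the median log2 fold change in males was -0.29, but the genera called in males were 13 higher and 2 lower. With libraries scaled by total reads they were 10 higher and 2 lower. A call in the higher direction was thus the usual one in males. The genera called in females were 3 higher and 2 lower with TMM, and 1 higher and 2 lower when libraries were scaled by total reads.

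Within the order, the share of Bacteroidales reads that were Bacteroides was 5.9% ± 3.31 (SD, n = 11) in control males and 28.2% ± 20.6 (SD, n = 10) in PAE males. PAE males 20 to 24 held 37% to 56.3%, and the other 5 averaged 9.33% ± 2.75 (SD). In females it was 8.32% ± 5.41 (SD, n = 7) in controls and 17% ± 14.3 (SD, n = 9) in PAE. The female values were, with the Robinsoniella libraries left out, 5.37% ± 2.41 (SD, n = 5) and 10.2% ± 4.8 (SD, n = 7). Bacteroidales as a whole made up 51.6% ± 7.0 (SD, n = 11) of bacterial reads in control males and 59.0% ± 6.81 (SD, n = 10) in PAE males. Without the Robinsoniella libraries PAE males averaged 55.1% ± 7.8 (SD, n = 5). In females the order was the other way, with 52.8% ± 3.22 (SD, n = 7) in controls and 50.1% ± 10.6 (SD, n = 9) in PAE. Of 10 other Bacteroidales genera tested, none was called higher in males and 1 was called lower. That genus, F082, made up 0.417% ± 0.996 (SD, n = 11) in control males, while 2 of 10 PAE males held 6 reads of it in all (log2 fold change -10.43, adjusted p = 0.00118, edgeR). It had 31100 reads in 7 of 11 control males, 23 in control females and 16 in PAE females. It could therefore pass the filter only with control males counted, the group where it was high. Its SD there exceeded its mean, and its call is given as a description only. None of the 10 was called in females.

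B. sartorii was called higher in PAE mice of both sexes, and of the 7 species names tested it had the largest log2 fold change in each sex. In control males it made up from 0.00525% to 0.501% of bacterial reads, with a median of 0.00807%. In PAE males it made up from 0.214% to 21.9%, with a median of 3.70%. All 10 PAE males lay above the control median and 6 lay above every control male. Mean shares were 0.150% ± 0.202 (SD, n = 11) and 6.99% ± 8.19 (SD, n = 10), a ratio of 46.6. On the log2 scale this species was higher by 5.96 (SE 1.27, adjusted p = 0.00197, edgeR).

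In control females B. sartorii ranged from 0.00408% to 0.416%, with a median of 0.0208%. In PAE females it ranged from 0.272% to 16.9%, with a median of 0.797%. All 9 PAE females lay above the control median and 7 lay above every control female. The ratio of mean shares was 32.5 (0.102% ± 0.160, SD, n = 7, against 3.30% ± 5.57, SD, n = 9). edgeR gave a log2 fold change of 5.40 (SE 1.52, adjusted p = 0.0193), and without control female 34 it was 5.36 (adjusted p = 0.051, edgeR). The male and female changes differed by 0.56 (SE 1.59, 95% interval -2.56 to 3.68; adjusted p = 0.954, edgeR), a difference that took the opposite sign (-0.93) without the Robinsoniella libraries. This interval allows differences in either direction of more than 2 log2 units.

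Shares of B. sartorii are set out here by level, of which the lowest lay well apart from the rest. A group of 7 PAE libraries, males 20 to 24 and females 27 and 28, held 6.47% to 21.9%. The other 12 PAE libraries held 0.214% to 1.71%, with a median of 0.46%. As a ratio, the gap from 1.71% to 6.47% is smaller than the spread within these 12. Of the controls, 6 (males 1, 2, 6 and 7 and females 8 and 9) held 0.228% to 0.501%, which lies within the range of those 12. The remaining 12 controls held 0.00408% to 0.0267%, or 18 to 74 reads of variant a in libraries of 177493 to 1813222 bacterial reads. No PAE library was at this low level: the lowest count of variant a among the 19 PAE libraries was 376 reads. All 8 controls numbered 30 to 37 were at the low level, as were control females 3, 4 and 10 and control male 5.

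Without the Robinsoniella libraries, mean B. sartorii was 0.402% ± 0.302 (SD, n = 5) in PAE males and 0.150% ± 0.202 (SD, n = 11) in control males. It was 0.785% ± 0.503 (SD, n = 7) in PAE females and 0.133% ± 0.185 (SD, n = 5) in control females. The log2 fold changes were then 1.64 in males (adjusted p = 0.725, edgeR) and 2.57 in females (adjusted p = 0.416, edgeR). With PAE libraries 11 to 19 as the only exposed mice they were 1.15 (adjusted p = 0.845) and 2.28 (adjusted p = 0.423), again by edgeR. With controls 1 to 10 as the only controls they were 5.15 and 5.21, and neither passed (adjusted p = 0.125 for each, edgeR). With runs of label numbers as a random block in limma they were 6.25 (adjusted p = 0.384) and 6.14 (adjusted p = 0.305). Control females 3 and 10, which held Robinsoniella reads, had 0.0208% and 0.0267% of B. sartorii.

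**Figure D2:**
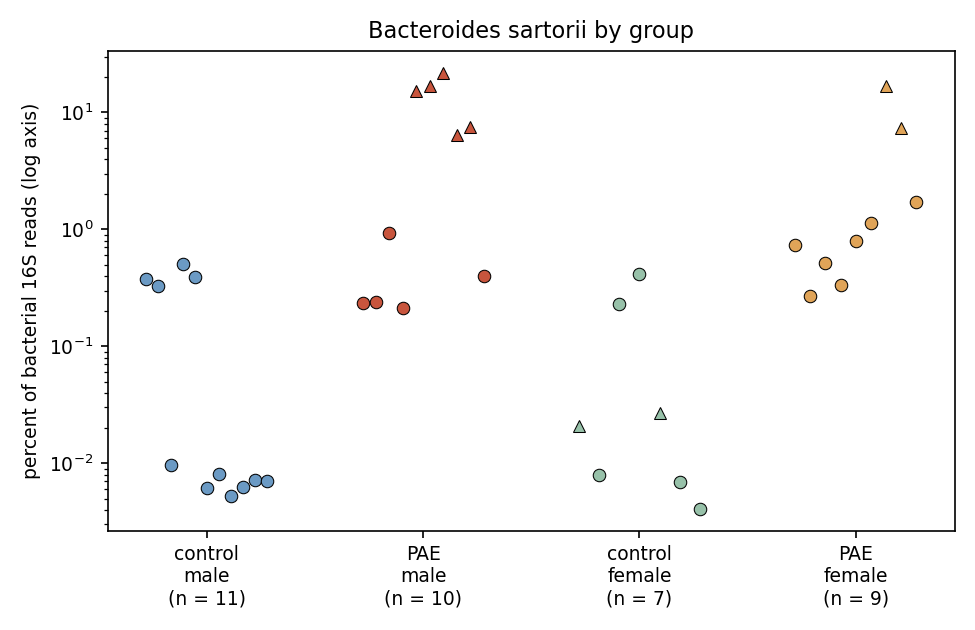
Percent of bacterial 16S reads of B. sartorii in each library by group, on a log axis; triangles are libraries with Robinsoniella reads. Every PAE library lies at 0.214% or more, 6 controls lie between 0.228% and 0.501%, and 12 controls lie at 0.0267% or less.

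B. acidifaciens, a mucin and plant fibre degrader common in laboratory mice, was the leading Bacteroides species name in 8 of 11 control males, in all 7 control females, in 3 of 10 PAE males and in 6 of 9 PAE females. It made up from 0.342% to 5.36% in control males, with a median of 1.58%, and from 0.777% to 12.7% in PAE males, with a median of 5.05%. PAE males 20 to 24 lay above every control male, and the other 5 did not. The means were 1.96% ± 1.53 (SD, n = 11) and 5.67% ± 4.42 (SD, n = 10), and the log2 fold change of 1.47 (SE 0.67) did not pass (p = 0.0346, adjusted p = 0.168, edgeR). Without the Robinsoniella libraries it was -0.03, with means of 1.96% and 1.99%. DESeq2 gave 2.23 on all libraries (adjusted p = 0.0146). Among the other settings, DESeq2 included, the male change passed in 3, reversed sign in 2 and did neither in 11. In females the means were 3.25% ± 2.44 (SD, n = 7) in controls and 4.81% ± 5.03 (SD, n = 9) in PAE, a log2 fold change of 0.44 with a 95% interval from -1.07 to 1.95 (adjusted p = 0.969, edgeR). PAE females 27 (12.7%) and 28 (13.9%) lay above every control female, while the other 7 did not.

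Bacteroides without a species name was present at a share of at least 0.1% in all 10 PAE males. Such a share of its variant a was found in 6 of 11 control males, 4 of 7 control females and 4 of 9 PAE females, and the other 13 libraries held 0 to 129 reads of it. At the level of the name, control males ranged from 0.00294% to 1.53%, with a median of 0.244%, and PAE males from 0.62% to 12%, with a median of 2.92%. Of 10 PAE males, 8 lay above every control male. The means were 0.556% ± 0.601 (SD, n = 11) and 4.0% ± 3.47 (SD, n = 10), a ratio of 7.19. Its log2 fold change of 2.85 (SE 1.06) did not pass with edgeR (p = 0.0103, adjusted p = 0.0692). It passed by edgeR without control female 34 (adjusted p = 0.0394) or PAE female 27 (adjusted p = 0.0369). These female libraries enter the male change only through the scaling, the filter and the shared spread. Of the other settings it passed in 6 and did not pass in 10. Among the 6 were DESeq2 (3.58, adjusted p = 0.00153) and limma on centred log-ratios (5.40, adjusted p = 0.00259), both with all libraries. Without the Robinsoniella libraries the male log2 fold change was 2.08 (adjusted p = 0.635, edgeR). PAE females 27 and 28, which were high in B. sartorii and B. acidifaciens, held 0.00375% and 0.00414% of these unnamed variants. In females the means were 0.205% ± 0.196 (SD, n = 7) in controls and 0.634% ± 0.969 (SD, n = 9) in PAE (log2 fold change 0.97, adjusted p = 0.969, edgeR).

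B. caecimuris, first described from the mouse caecum, averaged 0.331% ± 0.274 (SD, n = 11) in control males and 0.682% ± 0.480 (SD, n = 10) in PAE males. Its log2 fold change was 1.0 with a 95% interval from -1.05 to 3.06 (adjusted p = 0.678, edgeR). In females it averaged 0.941% ± 0.955 (SD, n = 7) in controls and 0.736% ± 0.628 (SD, n = 9) in PAE (log2 fold change -0.48, adjusted p = 0.969, edgeR). All 19 PAE libraries held it at 0.207% or more. It had 0 reads in controls 30 to 33, which allows shares of up to 0.000384% to 0.000835% (3 reads of the library), and made up 0.152% to 2.79% in the other 14 controls.

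**Figure D3:**
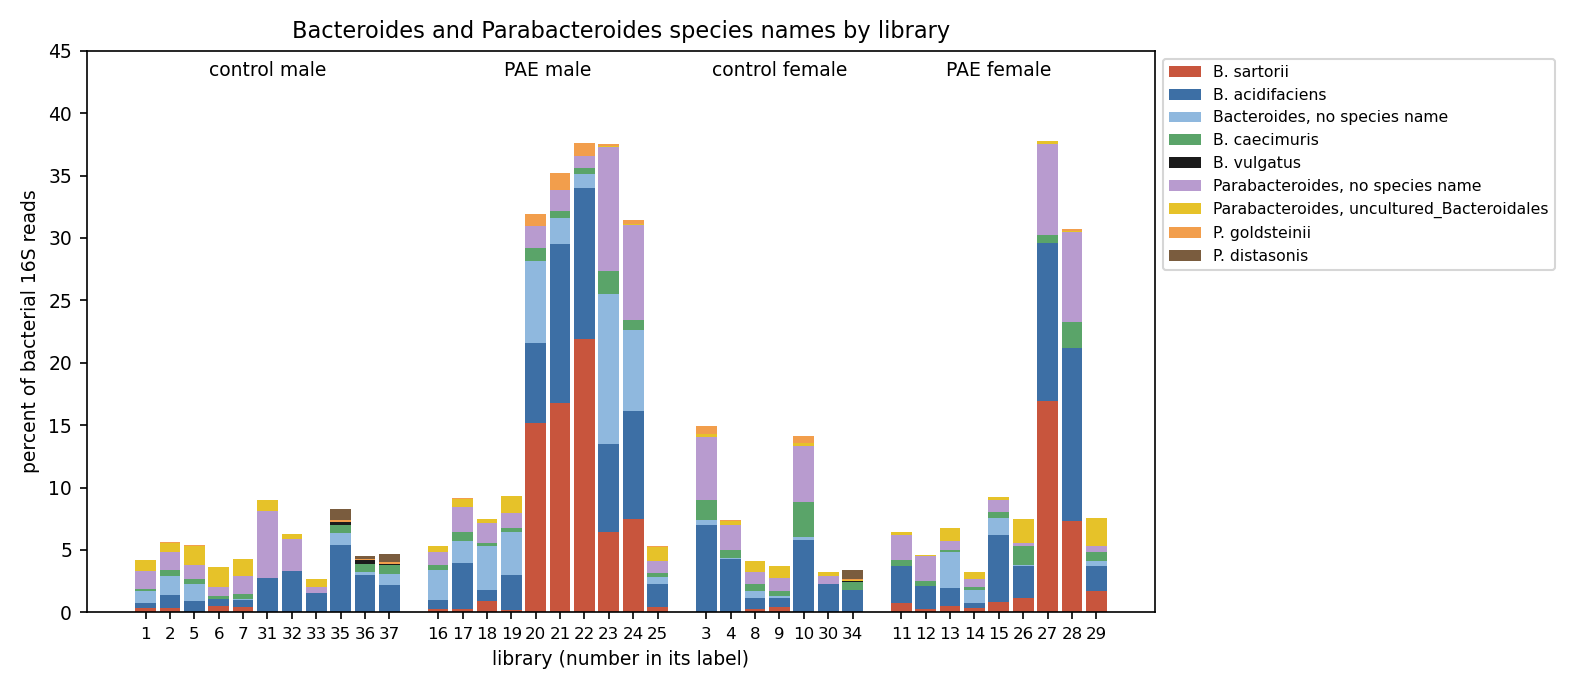
Percent of bacterial 16S reads by species name for each library, stacked, with libraries grouped and numbered as in their labels. In PAE males 20 to 22 and PAE female 27 B. sartorii was the largest part, in PAE male 23 it was Bacteroides without a species name, and P. distasonis and B. vulgatus appear only in controls 34 to 37 at this scale.

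Among Parabacteroides, variants without a species name averaged 1.34% ± 1.57 (SD, n = 11) in control males and 2.86% ± 3.18 (SD, n = 10) in PAE males. PAE males 23 (9.94%) and 24 (7.61%) and PAE females 27 (7.32%) and 28 (7.24%) were the 4 highest libraries, and the next were control male 31 (5.40%) and control females 3 (5.07%) and 10 (4.53%). PAE males 20 to 22, also high in Bacteroides, held 0.952% to 1.75%. Their log2 fold change was 0.96 in males (adjusted p = 0.654, edgeR) and 0.19 in females (adjusted p = 0.969, edgeR).

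The variants named uncultured_Bacteroidales held small shares in the 5 PAE males with the most Bacteroides. PAE males 20 to 24 held them at 0.00761% to 0.096%, and the remaining 5 at 0.3% to 1.43%. Control males 1 to 7 held 0.72% to 1.60%, and controls 34 to 37 of both sexes held at most 0.00159%. The group means were 0.725% ± 0.585 (SD, n = 11) in control males and 0.426% ± 0.513 (SD, n = 10) in PAE males (log2 fold change -0.67, adjusted p = 0.770, edgeR). In females they were 0.422% ± 0.352 (SD, n = 7) and 0.747% ± 0.817 (SD, n = 9), a log2 fold change of 0.58 (adjusted p = 0.969, edgeR).

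P. goldsteinii had opposite signs in the fits for males and females. In control males it ranged from 0% to 0.135%, with a median of 0.0229%, and in PAE males from 0% to 1.33%, with a median of 0.128%. PAE males 20, 21 and 22 held 1.02%, 1.33% and 1.01%, and 5 of 10 PAE males lay above every control male. In control females it ranged from 0.000867% to 0.645%, with a median of 0.0533%. In PAE females it ranged from 0% to 0.166%, with a median of 0.00038%, and 6 of 9 lay below every control female. In 4 of these 6 it had 0 reads, which allows up to 0.000757% to 0.00196%, so for some the order against the lowest control female is not resolved at this depth. Mean shares were 9.67-fold higher in PAE than control males and 9.66-fold lower in PAE than control females.

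None of these changes passed for P. goldsteinii with edgeR on all libraries. Among the other settings the male change passed in 3, reversed sign in 2 and did neither in 11. The log2 fold change was 3.37 (SE 1.55, p = 0.0362, adjusted p = 0.171) in males and -3.28 (SE 1.74, p = 0.0665, adjusted p = 0.38) in females, by edgeR. The difference between them was 6.65 (SE 2.34, p = 0.007, adjusted p = 0.105, edgeR). DESeq2 called that difference (7.58, adjusted p = 0.00585), and limma on centred log-ratios did not (9.13, adjusted p = 0.191). Without PAE female 28, the highest PAE female, the female change was -6.37 (adjusted p = 0.0338, edgeR) and the difference 9.78 (adjusted p = 0.0237, edgeR). Control females 3 (0.645%) and 10 (0.574%) were the highest female controls. Without the Robinsoniella libraries, which include these and PAE males 20 to 24, the male change was -0.34 and the difference 3.58 (adjusted p = 1.0, edgeR).

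At the level of species names 7 of the 13 names passed the filter. In males 1 of 7, B. sartorii, was called, against a background of 12.4% of 194 names. An unadjusted p under 0.05 (edgeR) was found for 4 of 7, and for 46 of all 194 names. The median log2 fold change was 1.47 over the 7 and -0.50 over all names. In females 1 of 7, again B. sartorii, was called (1 unadjusted), against 7.73%. Scaling by total reads in place of TMM moved the median over all names in females from -0.21 to 0.09, and the names called from 4 higher and 11 lower to 7 higher and 11 lower. For the difference between sexes edgeR called 0 of 7 (1 unadjusted, background 3.09%), DESeq2 called 1 and limma none. Over all 194 names, 30 in females and 22 for the difference had an unadjusted p under 0.05 (edgeR). The share called over all names by DESeq2 and limma is not given.

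**Figure D4:**
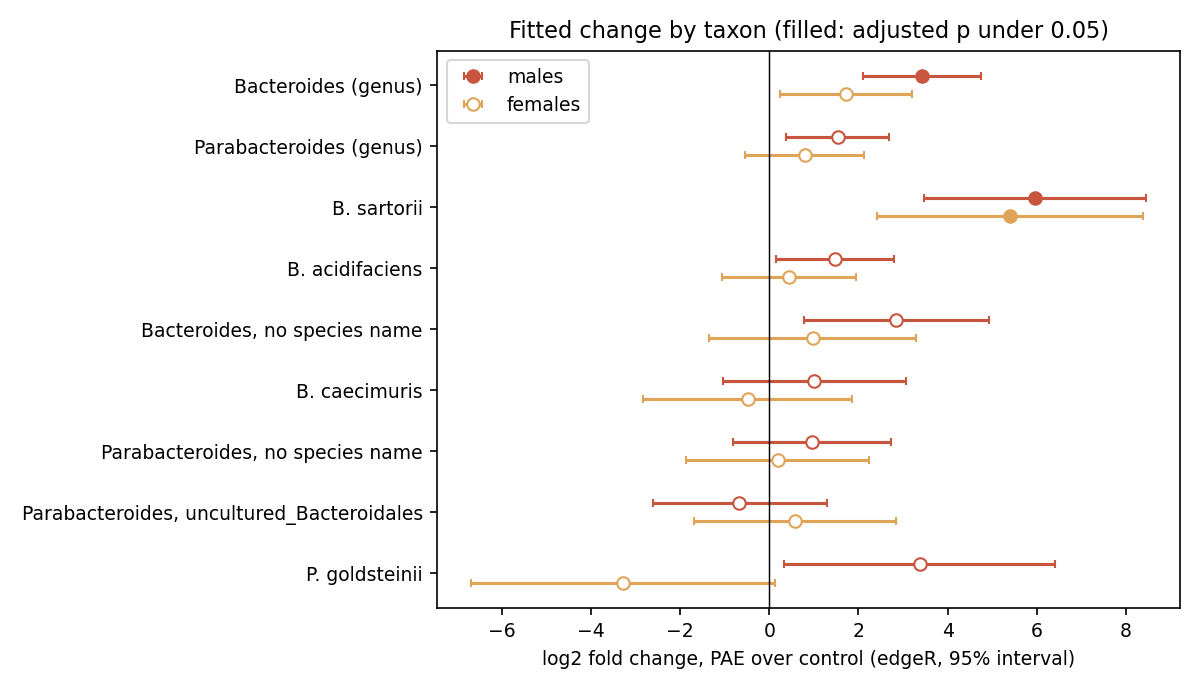
Log2 fold change of PAE over control from edgeR with its 95% interval, for both genera and the 7 species names tested, in males and females. Filled points have an adjusted p under 0.05: Bacteroides (3.42) and B. sartorii (5.96) in males and B. sartorii (5.40) in females.

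Among single variants, variant a of B. sartorii was called in males (log2 fold change 5.88, SE 1.29, adjusted p = 0.00326) and in females (5.31, SE 1.54, adjusted p = 0.0212), by edgeR. The male call was lost in 4 of 16 other settings and the female call in 9 of 16. Both were lost without the Robinsoniella libraries (1.38, adjusted p = 0.972, in males and 2.78, adjusted p = 0.377, in females, edgeR), with PAE 11 to 19 alone, with controls 1 to 10 alone and with runs as a block in limma. The female call was also lost with limma on centred log-ratios, the stricter filter, depth as a covariate, females alone and without libraries 34 to 37, with adjusted p from 0.0556 to 0.123. Leaving out control female 34 alone also lost it (adjusted p = 0.0525, edgeR). This was 1 of 11 variants called in males (background 12.1% of 553) and 1 of 11 in females (background 12.3%). An unadjusted p under 0.05 (edgeR) was found for 5 of 11 in males and 1 of 11 in females. Over all 553 variants the unadjusted counts were 121 in males and 99 in females. Variants a, c and d of B. acidifaciens, described below as close to a fixed proportion, were among the 5. By edgeR 0 of 11 variants were called for the difference between sexes (1 unadjusted, background 0%), for male against female within controls (2 unadjusted, background 0.904%) and within PAE (2 unadjusted, background 0%). The unadjusted counts over all 553 variants were 68, 52 and 31 in that order. For the difference between sexes DESeq2 called 1 variant and limma none, within controls neither tool called any, and within PAE each called 1. The share called over all variants by these 2 tools is not given.

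B. acidifaciens was made up of 20 variants, 6 of them followed here as variants a to f. Variant a was the leading one: it averaged 0.614% ± 0.727 (SD, n = 11) in control males and 3.20% ± 3.0 (SD, n = 10) in PAE males. Its log2 fold change in males was 2.75 (SE 1.01, p = 0.0094, adjusted p = 0.0719, edgeR), and it passed without control male 32 (3.10, adjusted p = 0.0491, edgeR). It was 0.21 with the Robinsoniella libraries left out (adjusted p = 0.995, edgeR). Variants c and d kept close to a fixed proportion of variant a in most libraries. Where both had reads, the ratio of c to a had a median of 0.272 (0.206 to 0.449, 36 libraries) and the ratio of d to a a median of 0.279 (0.228 to 0.327, 32 libraries). Controls 34 to 37 stood outside this proportion for variant d, which had 0 reads in all 4. Variant a had 6781 reads in control female 34 and 185 to 319 in control males 35 to 37. The 2 highest ratios of c to a were those of libraries 34 (0.449) and 36 (0.398). Those of libraries 35 (0.238) and 37 (0.322) lay within the range of the other libraries. PAE female 26, with 100 reads of a, had 0 reads of c and of d. The male log2 fold changes were 2.86 for c (adjusted p = 0.098) and 2.77 for d (adjusted p = 0.22), by edgeR.

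Variant b of B. acidifaciens did not follow variant a. Its ratio to a had a median of 0.716 over 37 libraries, and ranged from 0 in control male 31 to 128 in control male 35. It made up 0.00551% to 0.0064% of reads in PAE males 20 to 22, where variant a made up 4.11% to 8.03%, and 5.22% in PAE female 15, where variant a made up 0.139%. Mean shares of variant b were 0.865% ± 1.46 (SD, n = 11) in control males and 0.641% ± 0.698 (SD, n = 10) in PAE males (log2 fold change -0.96, SE 1.19, adjusted p = 0.764, edgeR). In females they were 0.581% ± 0.727 (SD, n = 7) and 1.46% ± 1.63 (SD, n = 9), a log2 fold change of 1.07 (SE 1.39, adjusted p = 0.985, edgeR). The high B. acidifaciens shares of PAE males 20 to 22 and PAE females 27 and 28 were thus mostly shares of variants a, c and d.

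A like fixed proportion was seen in Parabacteroides without a species name, where the ratio of variant b to variant a had a median of 0.184 (0.158 to 0.45, 33 libraries). The 2 highest ratios were those of control males 32 (0.45) and 33 (0.399), outside the 0.158 to 0.21 of the other 31. For P. distasonis the ratio of variant b to a was 0.16 to 0.212 in the 4 libraries that could be compared.

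Controls 34 to 37, 1 female and 3 males, held a set of variants that the rest of the series lacked. P. distasonis made up 0.716% of reads in control female 34 and 0.887%, 0.235% and 0.600% in control males 35, 36 and 37. It had 9 reads in 2 PAE females and none elsewhere. B. vulgatus made up 0.128%, 0.227%, 0.297% and 0.133% in the same libraries in that order and had 0 reads in the other 33, which allows up to 0.000239% to 0.00292%. Variants e and f of B. acidifaciens were also read in these 4 libraries alone, while variant d had 0 reads there. In all, 34 of the 272 variants, with 48497 reads, were found in controls 34 to 37 alone. Parabacteroides without a species name, present at 0.285% or more elsewhere, made up at most 0.00621% in them.

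These 4 libraries set the control means of P. distasonis and B. vulgatus. Against a floor of 3 reads over the group, P. distasonis was at least 1730-fold lower in PAE than in control males. B. vulgatus was at least 660-fold lower in males and at least 268-fold lower in females. Both names missed the filter and were not tested in the main fits. The fits with no filter included them, and their results there are not given. Without libraries 34 to 37 neither name had a read in controls. Both therefore separate controls 34 to 37 from the other libraries, and not the 18 controls from the 19 PAE libraries.

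**Figure D5:**
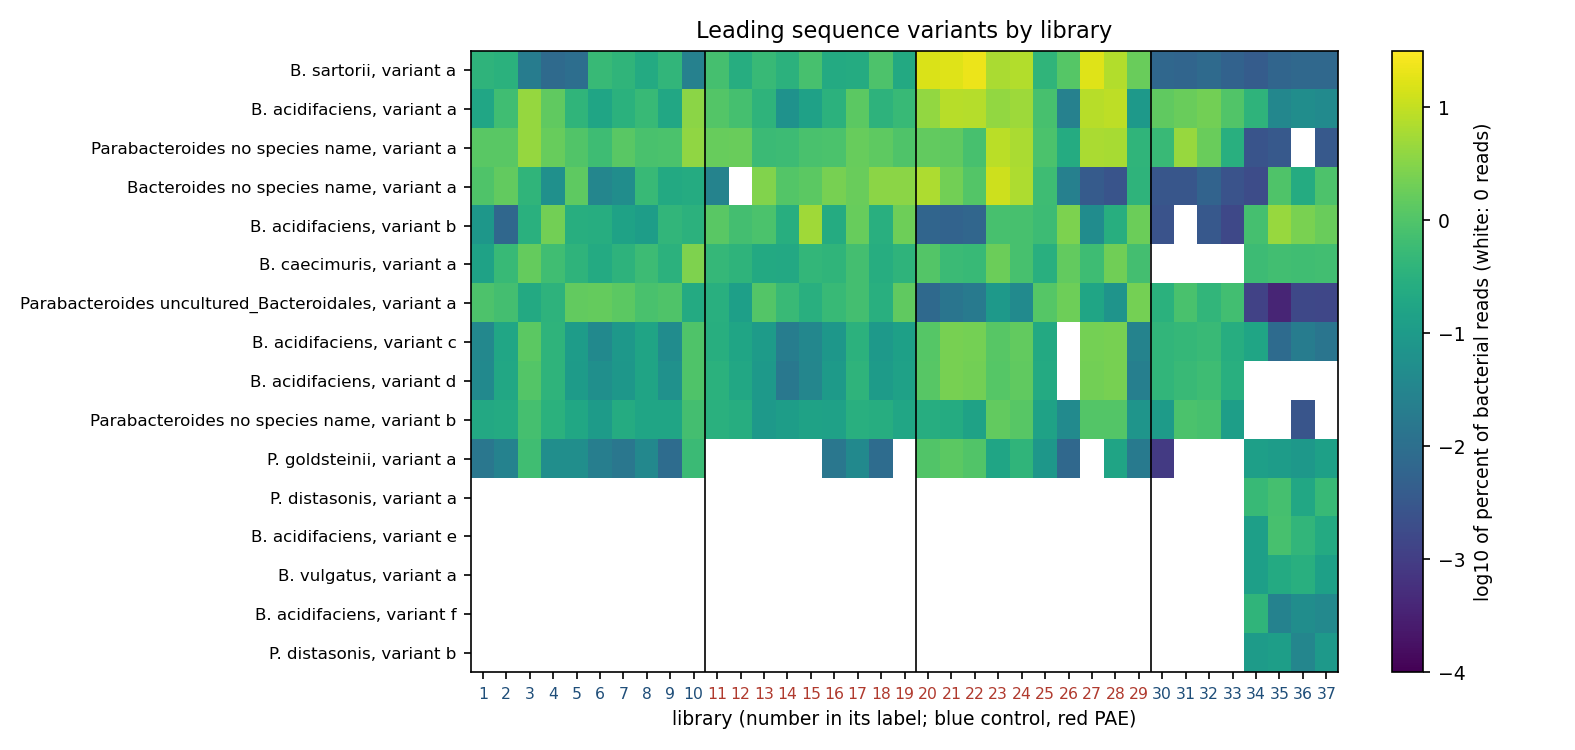
Log10 of the percent of bacterial reads of the 16 leading variants in each library, with white for 0 reads and black lines between the runs of label numbers. P. distasonis variants a and b, B. vulgatus and B. acidifaciens variants e and f are filled in controls 34 to 37 alone, and B. caecimuris is white in controls 30 to 33.

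After each library was thinned to 102655 reads, the number of Bacteroides variants per library was 8.73 ± 2.57 (SD, n = 11) in control males and 11.4 ± 2.99 (SD, n = 10) in PAE males. It was 8.29 ± 0.756 (SD, n = 7) in control females and 12.2 ± 7.33 (SD, n = 9) in PAE females. The PAE female mean rests on libraries 27 (21 variants) and 28 (28 variants), both with Robinsoniella reads: the other 7 held 6 to 11, with a mean of 8.71 ± 1.7 (SD), and the medians of all PAE and control females were 9 and 8. With those libraries left out, PAE males averaged 9.6 ± 2.3 (SD, n = 5) and control females 8.2 ± 0.837 (SD, n = 5). Without thinning the means were 9.91, 12.6, 9.29 and 13.8 in the same order. More Bacteroides reads per library also move with exposure, and their part in these counts was not tested. Parabacteroides variants per thinned library averaged 6.09 ± 2.02 (SD, n = 11), 6.2 ± 1.69 (SD, n = 10), 6.0 ± 1.29 (SD, n = 7) and 6.67 ± 3.87 (SD, n = 9) in that order of groups. The groups overlapped for both genera.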

How the data were processed

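The deposited values are unnormalized counts, whole reads for each variant in each library. A second deposited table gives taxon names. Tools listed by the submitters' processing notes are cutadapt and Bowtie2, with the mouse build GRCm39 and no roles or versions. How variants were denoised and classified is not given in the sources used here. Rows that were not bacterial, or were chloroplast or mitochondrial, were left out, which kept 6085 of 6100 rows and 99.991% of 16140229 reads.

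Groups came from the labels. In control males 5 and 6 the title and description exchange names, which leaves the group unchanged. All 157 pairs of libraries within groups differed beyond counting noise (smallest chi-square per degree of freedom 95.1).

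Counts were summed by genus (433) and by species name (748). Those passing a filter (5 reads or more, 7 libraries or more) went into edgeR 4.0.16 under R 4.3.3 (TMM scaling, quasi-likelihood F-test, 4 group means, all 37 libraries), with Benjamini-Hochberg adjustment over all features and a threshold of 0.05. SEs are the log2 fold change over the square root of F, and 95% intervals follow from them. Alternatives were limma 3.58.1 (centred log-ratios, 0.5 added), DESeq2 1.42.0, scaling, filters and left-out libraries. The alternatives without Robinsoniella libraries and without libraries 34 to 37 were chosen after seeing the data. Named were both genera, every species name, the 10 variants with the highest mean share and any member called; variants e and f of B. acidifaciens and the variants of P. distasonis and B. vulgatus were added after their values were seen. The members and lists were chosen with earlier results of these data known. Floors and bounds cover counting error only. No variant sequences are printed.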

Additional observations from a re-analysis of the deposited data

Results flagged for a closer look

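In 57 groups of 7 to 10 libraries (control males, 11 libraries, were not examined), 11 had a highest or lowest library that lay apart from the rest by Dixon's criterion. For normally distributed values chance alone gives about 1 in 20 groups, and a species name and its leading variant count as separate groups. Shares here can be skewed: B. sartorii in PAE females had a median of 0.797% and a mean of 3.3%. The number flagged is therefore not set against that rate.

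PAE male 23 was set apart by B. caecimuris, with 1.85% of bacterial reads both for the species name and for its variant a (next library 1.06%). It was also set apart by Bacteroides without a species name, with 12% for the name and 11.9% for variant a (next 6.56% and 6.55%). PAE female 27 was set apart by B. sartorii, with 16.9% for the name and for variant a (next 7.31% and 7.26%). PAE female 13 was set apart by Bacteroides without a species name, with 2.84% for the name and for variant a (next 1.33% and 1.32%). PAE female 28 was set apart by P. goldsteinii at 0.166% (next 0.018%). Variant b of B. acidifaciens stood at 2.14% in control female 4 (next 0.746%) and at 5.22% in PAE female 15 (next 2.58%).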

How the results depend on the processing

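No paired analysis was possible because each number in the labels belongs to 1 library. Runs of label numbers stood in as a random block.

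On the log2 scale, the male change of Bacteroides was 2.69 with runs as a block, 0.76 with PAE 11 to 19 alone and 0.82 without Robinsoniella libraries, none past the threshold. The female change was -0.22 with PAE 11 to 19 alone and 2.14, past the threshold (adjusted p = 0.0202, edgeR), with PAE 20 to 29 alone. For Parabacteroides the male change was -0.17 with PAE 11 to 19 alone, and the female change was -0.08 by DESeq2, -0.92 with PAE 11 to 19 alone and -0.13 without Robinsoniella libraries. The difference between sexes was -0.86 with controls 30 to 37 alone. Male against female within controls was 0.43 with controls 30 to 37 alone and 0.18 without Robinsoniella libraries. Within PAE it was -0.03 by DESeq2, -0.09 with all rows, -0.04 with controls 1 to 10 alone, -0.43 with controls 30 to 37 alone, -0.33 with PAE 20 to 29 alone and -0.06 without libraries 34 to 37. No Parabacteroides change among these passed.

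With no filter, every species name and variant with a read was tested. Counts under that setting are therefore not out of the 7 names and 11 variants of the main fits. Species names called in males numbered 3 with TMMwsp, 4 with DESeq2, 3 with limma, 0 with the block and 5 with no filter. They numbered 2 with males alone, 0 with controls 1 to 10 alone and 0 with PAE 11 to 19 alone. With PAE 20 to 29 alone they numbered 4, and without Robinsoniella libraries 0. In females the names called numbered 0 with limma, the block, the stricter filter, controls 1 to 10 alone or without Robinsoniella libraries. With no filter they numbered 3. With PAE 11 to 19 alone the female count was unchanged, although B. sartorii was not called there. The name called in that setting was therefore another. For the difference between sexes DESeq2 and no filter each gave 1. Of the variants, those called in males numbered 2 with TMMwsp, 6 with DESeq2, 2 with limma, 0 with the block, 16 with no filter, 0 with controls 1 to 10 alone, 0 with PAE 11 to 19 alone, 2 with PAE 20 to 29 alone and 0 without Robinsoniella libraries. In females they numbered 7 with no filter and 0 with limma, the block, the stricter filter, depth as a covariate, females alone, controls 1 to 10 alone, PAE 11 to 19 alone, without Robinsoniella libraries or without libraries 34 to 37. The variants called for the difference between sexes numbered 1 with DESeq2, and within PAE between sexes 1 with DESeq2, limma or the block. Over all species names in males, TMMwsp called 18 higher and 12 lower, against 12 and 12 with TMM. Over all variants in males it called 32 higher and 45 lower, against 23 and 44. For the other settings listed here the share called over all features is not given, so their counts stand without a background.

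B. acidifaciens in males was -0.33 with PAE 11 to 19 alone and -0.03 without Robinsoniella libraries, and P. goldsteinii was -1.64 and -0.34. The sex difference of B. sartorii was -0.06 with controls 1 to 10 alone, -1.13 with PAE 11 to 19 alone and -0.93 without Robinsoniella libraries. For its variant a it was -0.39 with no filter, -0.01, -0.99, -0.04 with PAE 20 to 29 alone and -1.4 under the like settings. The causes were not tested.

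Leaving out each library in turn gave Bacteroides changes of 2.35 to 3.76 in males (called in 37 of 37 fits), 1.28 to 1.93 in females and 0.48 to 2.38 for the difference between sexes (called in none). It gave Parabacteroides changes of 0.43 to 1.8 in males, -0.54 to 1.36 for the difference between sexes, -1.07 to 0.11 within controls and -0.43 to 0.48 within PAE. Species called ranged from 1 to 2 in males, 0 to 2 in females and 0 to 1 for the difference, and variants from 1 to 2 in males and 0 to 2 in females. B. sartorii ranged from 4.69 to 6.36 in females and from -0.4 to 1.21 for the difference, and its variant a from 4.52 to 6.16 and -0.28 to 1.12.

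Few reads limit the 261 variants that missed the filter, and names at 0 reads have only bounds.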
